A study of Homo sapiens with 12 samples.

Results

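The SR proteins are a family of splicing factors, and the 10 genes described here, SRSF1, SRSF2, SRSF3, SRSF4, SRSF5, SRSF6, SRSF7, SRSF9, SRSF10 and SRSF11, were chosen by name from the 61860 genes of the count table. Their members are followed both as genes, summed over transcripts, and as 113 single transcripts among the 251121 in the table. Of these 113 transcripts, 106 had a mean count above 2 over the 12 libraries and were tested. By their annotated types 38 of the tested transcripts were coding, 28 were retained-intron, 23 were of decay type (annotated as substrates of nonsense-mediated or non-stop decay) and 17 were of other types without a defined reading frame.

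The RNA came from a pair of HEK293 Flp-In T-REx lines, derived from a human embryonic kidney cell line. In both, doxycycline switches on a cassette that encodes miRNAs targeting the cell's own PGC-1α mRNA and a FLAG-tagged PGC-1α that these miRNAs do not recognise, so that depletion of the endogenous coactivator and the inducer are common to every library. WT-res cells express the full-length protein, and ΔRS-res cells express a protein recorded as lacking residues 595 to 633, which lie in its arginine- and serine-rich RS domain. The paper places the start of this domain before residue 595. All cells received 1 µg/ml doxycycline for 6 days. Each transgene sits at the line's FRT site and the lines were expanded from individual colonies, so that line and clone cannot be told apart. Whole-cell RNA was taken from a single well, and cytoplasmic RNA from 6 pooled wells after hypotonic lysis, in 3 replicates per line and fraction from consecutive passages. Whether a replicate number marks the same passage in both lines is not stated, and p-values measure the spread between these replicates.

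SR proteins carry RNA recognition motifs and an RS domain, through which they bind exons and bring in the splicing machinery, and some of them also escort spliced mRNA out of the nucleus. Many SR genes hold a highly conserved exon with an early stop codon, called a poison exon, or a pair of splice sites in the last exon. Inclusion or use of these turns the mRNA into a substrate of nonsense-mediated decay, a route by which an SR protein can limit its own level. Other SR transcripts keep an intron, and such RNAs are commonly held in the nucleus.

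Where the early stop codons lie is shown by sequences of the human genome build GRCh38, written 5′ to 3′ in the direction of the transcript, with the annotated stop codon in capitals and the preceding coding bases in lower case. The first group comes from exons that are spliced in between exons of the Ensembl canonical transcript, hence cassette exons, in transcripts of decay type.
SRSF3-203, chr6:36599825-36599854, plus strand: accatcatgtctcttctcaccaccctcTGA
SRSF7-204, chr2:38749319-38749345, minus strand: tttcttcgtttgagtcagtcgcctTGA
SRSF6-202, chr20:43459275-43459304, plus strand: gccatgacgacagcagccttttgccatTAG
SRSF4-208, chr1:29166009-29166038, minus strand: ggagaggttcggttcttacaaggaaaaTGA
SRSF11-217, chr1:70230586-70230615, plus strand: aaaaaaatactcttgacgcatgaaaatTAA
The following transcripts are also of decay type, but they reach their stop by reading from a canonical exon into an intron that is still present.
SRSF7-208, chr2:38749516-38749545, minus strand: cggcgaagaagaagcaggtatttatttTAA
SRSF5-211, chr14:69769532-69769561, plus strand: atgacgaggagtgcctgtgggttatccTAA

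The SRSF3 exon is 456 bases long and the SRSF7 exon 449 bases. Both end at a GT donor and begin after an AG acceptor, as the windows around their borders show, with these dinucleotides in capitals.
SRSF3-203 acceptor, chr6:36599806-36599835, plus strand: tgaaccccgttacAGagtcaccatcatgtc
SRSF3-203 donor, chr6:36600262-36600291, plus strand: tgaaacccaaaactaGTaagtttttcctgc
SRSF7-204 acceptor, chr2:38749332-38749361, minus strand: gtcaaaacctttcAGgtttcttcgtttgag
SRSF7-204 donor, chr2:38748883-38748912, minus strand: ctgcaaacttgcaagGTttattttaaatac
SRSF7-204 and SRSF7-208 differ in what they take from intron 3 of the 7 introns of the canonical SRSF7 transcript. SRSF7-204 includes the cassette exon of 449 bases, whereas SRSF7-208 keeps all 875 bases of the intron. Between its stop codon and the last exon junction SRSF7-204 has 697 bases and SRSF7-208 has 1138 bases. In SRSF3-203 this distance is 548 bases, in SRSF6-202 it is 534 bases, in SRSF4-208 it is 875 bases, in SRSF11-217 it is 1149 bases and in SRSF5-211 it is 1090 bases. SRSF2-208 differs from these transcripts in that its stop codon is that of the canonical transcript, and a further intron is removed 105 bases after it.

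The library totals lay between 90333190 and 144628005 counts. The fraction labels went with known markers: the nuclear RNAs NEAT1 and KCNQ1OT1 were lower in cytoplasmic libraries (log2 differences of -1.51 and -1.72 by edgeR), as was MALAT1 (-0.56), and the mRNAs GAPDH, EEF1A1 and RPLP0 were higher (0.42, 0.48 and 0.40). The third library labelled WT-res whole-cell stands with ΔRS-res in genes that separate the lines in all the other libraries. DDX19B, in CPM (counts scaled to library size), was at 0.195 CPM in it, 12.1 to 15.2 CPM in the other WT-res libraries and 0.219 to 0.350 CPM in ΔRS-res, and those of SDHA were 328 CPM in it, 68.1 to 77.1 CPM in the other WT-res libraries and 326 to 382 CPM in ΔRS-res. It is kept under its label, and the whole-cell comparisons of the lines are also given without it. PPARGC1A, the gene of PGC-1α, had 647, 662 and 487 CPM in WT-res and 342, 355 and 486 CPM in ΔRS-res whole-cell libraries, and 682, 552 and 641 CPM and 297, 296 and 397 CPM in the cytoplasm. These counts can come from the endogenous gene and from the transgene, so that they do not check the deletion.

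Per length, SRSF3 was the most abundant of the 10 genes and SRSF4 the least. In whole-cell libraries the level of SRSF3, in TPM (counts divided by annotated transcript length and scaled to a common total per library), ranged from 246 to 341 with a median of 316, and SRSF4 ranged from 74.8 to 94.8 with a median of 82.1. Between them the median levels fell from SRSF9 (285 TPM) through SRSF1 (266 TPM), SRSF2 (257 TPM), SRSF7 (186 TPM), SRSF10 (143 TPM), SRSF5 (120 TPM) and SRSF6 (114 TPM) to SRSF11 (112 TPM). The whole-cell ranges of neighbours in this order overlapped except between SRSF2 and SRSF7, between SRSF7 and SRSF10, and between SRSF10 and SRSF5. SRSF2 ranged from 201 to 271 TPM and SRSF7 from 170 to 198 TPM. In the cytoplasm the median level of SRSF3 was 394 TPM, with a range of 296 to 431 TPM, and that of SRSF4 was 95.9 TPM. Of 12 pseudogenes and near copies of the members, SRSF8 had the most counts, 12.7% of those of SRSF2, and SRSF6P2 had a mean count of 14.2. The other 10 copies had mean counts of at most 1.33, so that few counts were assigned to them, although reads shared with a copy could have been divided between the loci.

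As whole genes, the members had log2 differences, cytoplasmic over whole-cell, from -0.38 to 0.30. By edgeR's quasi-likelihood test over all 12 libraries, with Benjamini-Hochberg adjustment over 26687 genes, 3 of the 10 members differed between fractions, against 54.9% of all genes tested. SRSF3 and SRSF7 were higher in the cytoplasm, against 23.7% of all genes, and SRSF5 was lower, against 31.3%. The scale of such comparisons rests on the normalisation between fractions: with TMM scaling (trimmed mean of M-values) the median log2 difference was -0.06 over all genes and 0.13 over genes with a mean count of at least 100. Over transcripts the corresponding medians were -0.07 and 0.28, so that differences of single transcripts and of genes stand on slightly different scales.

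SRSF3 and SRSF7 (chr6:36594353-36605600, plus strand, and chr2:38743599-38751494, minus strand) encode small SR proteins that shuttle and serve as adaptors for mRNA export. SRSF3 had 430, 454 and 368 CPM in WT-res and 427, 428 and 350 CPM in ΔRS-res whole-cell libraries, replicates 1 to 3 in order. In the cytoplasm these levels were 410, 580 and 450 CPM in WT-res and 557, 581 and 441 CPM in ΔRS-res. The groups overlapped. The study's sample sheet gives both fractions of a replicate the same cell pellet, and the pellets named here rest on it alone. In WT-res pellet 3 DDX19B was at 0.195 CPM in the whole-cell and 14.9 CPM in the cytoplasmic library, so that a shared pellet is in doubt. Deviations from group means correlated at -0.17 between the fractions of WT-res pellet 1. In 5 of the 6 pellets the cytoplasmic level of SRSF3 was the higher, the exception being WT-res pellet 1. SRSF3 was higher in the cytoplasm by 0.30 ± 0.10 on the log2 scale (SE, edgeR adjusted p = 0.0287). SRSF7 had 190 to 216 CPM in the 6 whole-cell libraries, with all cytoplasmic levels between 206 and 250 CPM, and was higher in all 6 pellets, by 0.18 ± 0.06 (SE, edgeR adjusted p = 0.02). Without TMM neither gene passed the threshold, at log2 differences of 0.21 (adjusted p = 0.121) and 0.10 (adjusted p = 0.209). The call of SRSF3 was also lost in 5 of the 12 fits that left out a single library, among them the fit without the third library labelled WT-res whole-cell, and that of SRSF7 in 2.

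SRSF5 (chr14:69726900-69772005, plus strand), a splicing activator of the same family, was lower in the cytoplasm in all 6 pellets. It had 120, 119 and 109 CPM in WT-res and 112, 113 and 97.4 CPM in ΔRS-res whole-cell libraries. In the cytoplasm SRSF5 had 71.8, 105 and 72.5 CPM in WT-res and 99.6, 104 and 63.2 CPM in ΔRS-res. The groups overlapped, since the highest cytoplasmic levels exceeded the lowest whole-cell level. The log2 difference of SRSF5 was -0.38 ± 0.13 (SE, edgeR adjusted p = 0.0264). With DESeq2 size factors it was -0.30 (adjusted p = 0.0775), and the call was lost in 5 of the 12 fits that left out a library.

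The other 7 members did not pass the test, with log2 differences from -0.17 ± 0.15 (SE) for SRSF2, an activator known for staying in the nucleus, to 0.21 ± 0.09 for SRSF9, a close relative of SRSF1. SRSF1, the most studied member and a proto-oncogene, differed by 0.13 ± 0.11, and SRSF6 by -0.06 ± 0.21. With the cell pellet as a block SRSF9 differed by 0.20 (adjusted p = 0.0134). With DESeq2 size factors SRSF4, SRSF9 and SRSF11 also passed as higher in the cytoplasm, at 0.17 (adjusted p = 0.0172), 0.28 (0.0399) and 0.20 (0.0192). The change between fractions did not differ between the lines for any member at an adjusted p under 0.05 (0 of 10 by edgeR and by DESeq2, against 0.00375% of all genes tested by edgeR). At an unadjusted p under 0.05 by edgeR there was 1 member, SRSF11, at an interaction of 0.42 ± 0.13 (SE), and 1472 of 26687 genes. Over the 12 fits that left out a library this interaction of SRSF11 ranged from 0.33 to 0.51. It passed in 1 of them, without WT-res whole-cell replicate 1 (0.51, edgeR adjusted p = 0.047).

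Under these small differences of whole genes lay large differences between the transcripts of a gene. Of the 106 tested transcripts 64 differed between fractions by edgeR's test at an adjusted p under 0.05, against 37.8% of all 130376 transcripts tested, with 31 higher and 33 lower in the cytoplasm. Of the 28 retained-intron transcripts 22 were lower in the cytoplasm, 1 was higher and 5 did not pass. Over all retained-intron transcripts tested 52.0% were lower and 2.75% higher. The median log2 difference was -1.43 over the 28 transcripts and -1.20 over all those of this type. Of the 23 decay-type transcripts 11 were higher, 2 were lower and 10 did not pass, against 14.7% higher and 9.51% lower of all decay-type transcripts. Their median was 0.92 and that of all decay-type transcripts 0.25. Of the 38 coding transcripts 18 were higher and 2 were lower, against 25.4% and 13.5%, with medians of 0.46 and 0.31. A retained-intron transcript cannot be told here from pre-mRNA that is still to be spliced, since the libraries were depleted of ribosomal RNA and not selected for poly(A).

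**Figure D1:**
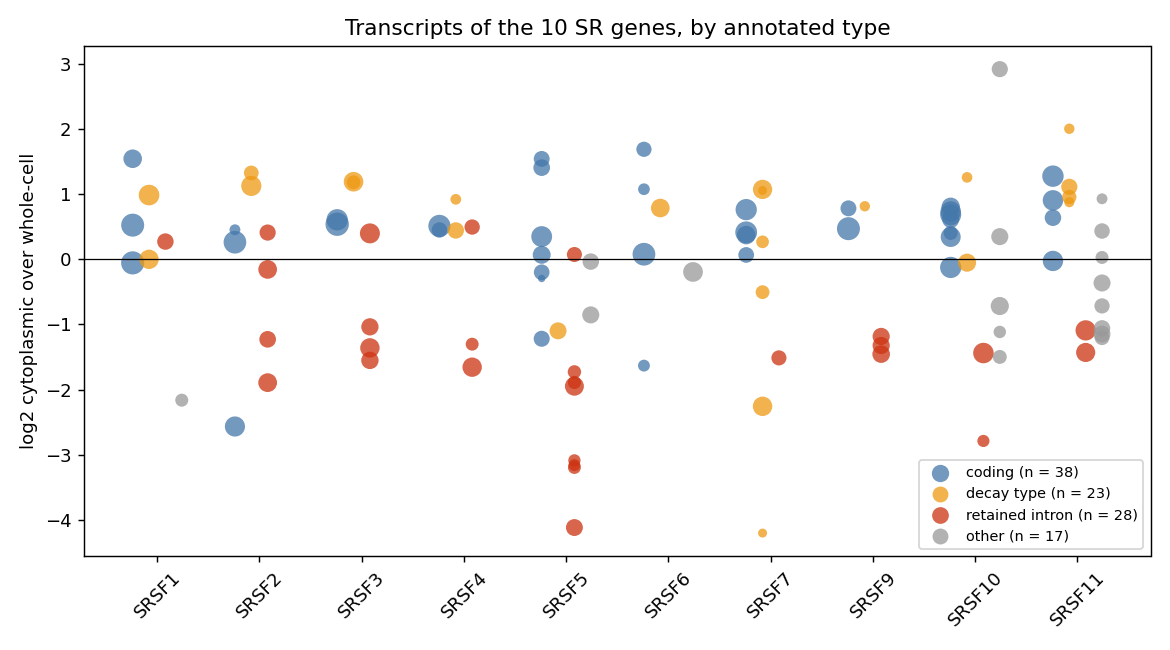
The log2 difference between cytoplasmic and whole-cell libraries is plotted for each of the 106 tested transcripts by gene and annotated type, with larger points for higher mean counts. The retained-intron transcripts lie mostly below 0, down to -4.12 for SRSF5-207, and decay-type transcripts lie on both sides, from -4.20 (SRSF7-206) to 2.0 (SRSF11-213).

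Among the 10 canonical transcripts 4 were higher in the cytoplasm and none was lower, against 29.2% higher and 20.6% lower of all canonical transcripts. SRSF3-202 was higher by 0.54 ± 0.11 (SE), SRSF4-201 by 0.51 ± 0.07, SRSF9-201 by 0.47 ± 0.10 and SRSF7-201 by 0.41 ± 0.06. The main retained-intron transcript, that with the highest mean count of each gene, was lower in 7 of the 9 genes that have a tested transcript of this type. SRSF5-212 differed by -1.95 ± 0.15 (SE), SRSF2-209 by -1.89 ± 0.10, SRSF4-207 by -1.66 ± 0.07 and SRSF7-211 by -1.51 ± 0.19. SRSF9-204 differed by -1.46 ± 0.09, SRSF10-213 by -1.44 ± 0.10 and SRSF11-214 by -1.09 ± 0.11. SRSF1-202 (0.27 ± 0.13) and SRSF3-206 (0.40 ± 0.16) did not pass, with adjusted p values of 0.126 and 0.0755. Both passed as higher in the cytoplasm under DESeq2 size factors, at 0.38 and 0.51. SRSF6 has no retained-intron transcript in the annotation.

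The exceptions hold little intron. SRSF1-202 covers 101 bases of intron sequence relative to the canonical transcript, and SRSF3-206 covers 221 bases. A split by intron length was made after these values were seen and is given as a description only. All 19 retained-intron transcripts with more than 300 intron bases or a whole intron were lower in the cytoplasm. Of the 9 with fewer, 3 were lower, 5 did not pass and SRSF2-210 was higher, by 0.41 ± 0.14 (SE), a call lost with the pellet as a block (adjusted p = 0.0804). Over all genes 58.4% of the longer kind and 37.8% of the shorter kind were lower, but their median log2 differences were close, at -1.21 and -1.17. In the members these medians were -1.55 and 0.07. SRSF2-203 fell on the same side although it is annotated as coding: it covers a whole intron, with 995 intron bases, and differed by -2.57 ± 0.13 (SE). It made up 15.0% to 27.3% of the SRSF2 counts in whole-cell libraries and 2.56% to 5.73% in cytoplasmic libraries. SRSF1-205, coding and with an intron of 200 bases kept, was higher by 0.52 ± 0.16 (SE).

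Relative to the coding transcripts of the same gene, retained-intron transcripts were lower in the cytoplasm in 8 of the 9 members that have them. This ratio of counts within a gene and library does not depend on the scaling between fractions, and limma was fitted to its log2 value over all genes with enough counts. Lower ratios were found in 75.5% of all genes tested and higher ratios in 4.85%. SRSF5 had the largest difference of the members, followed by SRSF7, SRSF11 and SRSF4. Retained-intron transcripts held from 27.3% to 41.1% of the SRSF5 counts in the 6 whole-cell libraries, with a median of 28.6%, and from 7.21% to 12.8% in the cytoplasm, with a median of 8.40%. The fractions did not overlap, and the log2 ratio differed by -2.39 ± 0.21 (SE, limma adjusted p = 1.92e-07). In SRSF11, a factor that contacts the U2 auxiliary factor at the 3′ splice site, the share was 28.0% to 40.2% in whole-cell and 11.5% to 14.8% in cytoplasmic libraries, and the log2 ratio differed by -2.03 ± 0.10 (SE, adjusted p = 2.92e-09). In SRSF10, a factor whose activity depends on its phosphorylation, it was 20.8% to 25.5% and 6.36% to 9.98%, with a difference of -1.83 ± 0.12. These shares are of counts, in which a long transcript weighs more than a short one.

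SRSF4, a member with a long RS domain, had 18.6% to 23.2% of its counts in retained-intron transcripts in whole-cell libraries and 5.44% to 7.08% in cytoplasmic libraries, a difference of the log2 ratio of -1.97 ± 0.09 (SE, adjusted p = 1.63e-09). The corresponding differences were -2.07 ± 0.15 in SRSF7, -1.81 ± 0.10 in SRSF9, -1.0 ± 0.07 in SRSF3 and -0.77 ± 0.13 in SRSF2. In all 8 genes the ratio was lower in the cytoplasm in 6 of 6 pellets. In SRSF1 it was lower in 2 of 6 pellets and differed by 0.04 ± 0.11 (SE, adjusted p = 0.727), or by 0.34 with the canonical transcript alone as the denominator (adjusted p = 0.0204). Leaving out each library in turn kept the number of genes called at 8.

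Decay-type transcripts moved in both directions relative to coding transcripts. By the same test the ratio was higher in the cytoplasm in SRSF1, SRSF2 and SRSF3 and lower in SRSF5, SRSF7 and SRSF10, so that 6 of 10 members passed, against 10.7% of all genes higher and 14.2% lower. SRSF2 had 6.63%, 6.71% and 7.61% of its counts in decay-type transcripts in WT-res and 6.80%, 8.54% and 8.23% in ΔRS-res whole-cell libraries. In the cytoplasm the shares were 20.2%, 13.9% and 20.7% in WT-res and 14.4%, 14% and 18.2% in ΔRS-res. The fractions did not overlap, and the log2 ratio differed by 1.24 ± 0.15 (SE, limma adjusted p = 0.000106). In SRSF3 the share was 3.03% to 4.02% in whole-cell and 4.73% to 7.54% in cytoplasmic libraries (0.64 ± 0.12, adjusted p = 0.00266). In SRSF1 it was 7.11% to 11% and 11.6% to 13.1% (0.47 ± 0.10, adjusted p = 0.00434). In these 3 genes the ratio was higher in the cytoplasm in 6 of 6 pellets.

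In the opposite direction, SRSF7 had 18.9% to 27.3% of its counts in decay-type transcripts in whole-cell and 12.3% to 14% in cytoplasmic libraries, a difference of the log2 ratio of -1.02 ± 0.08 (SE, limma adjusted p = 5.67e-06). In SRSF5 the share was 4.14% to 6.00% and 2.31% to 3.78% (-1.44 ± 0.17, adjusted p = 0.000125). SRSF10 differed by -0.42 ± 0.13 (adjusted p = 0.0379), a call that was lost in 8 of the 12 fits without a library and with the canonical transcript as the denominator, where the difference was 0.09 (adjusted p = 0.686). SRSF6 differed by 0.72 ± 0.26 (adjusted p = 0.0691), higher in 6 of 6 pellets. With the pellet as a block its adjusted p was 0.0316, and without the third library labelled WT-res whole-cell the difference was 0.86 (adjusted p = 0.0394), and without WT-res cytoplasmic replicate 2 it was 0.94 (adjusted p = 0.00838). SRSF4 (-0.04 ± 0.13) and SRSF11 (0.25 ± 0.12) did not pass, although SRSF11 differed by 1.14 relative to its canonical transcript alone (adjusted p = 0.000143). SRSF9 had at most 0.0917% of its counts in decay-type transcripts, too few for a difference to be detectable at this depth.

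**Figure D2:**
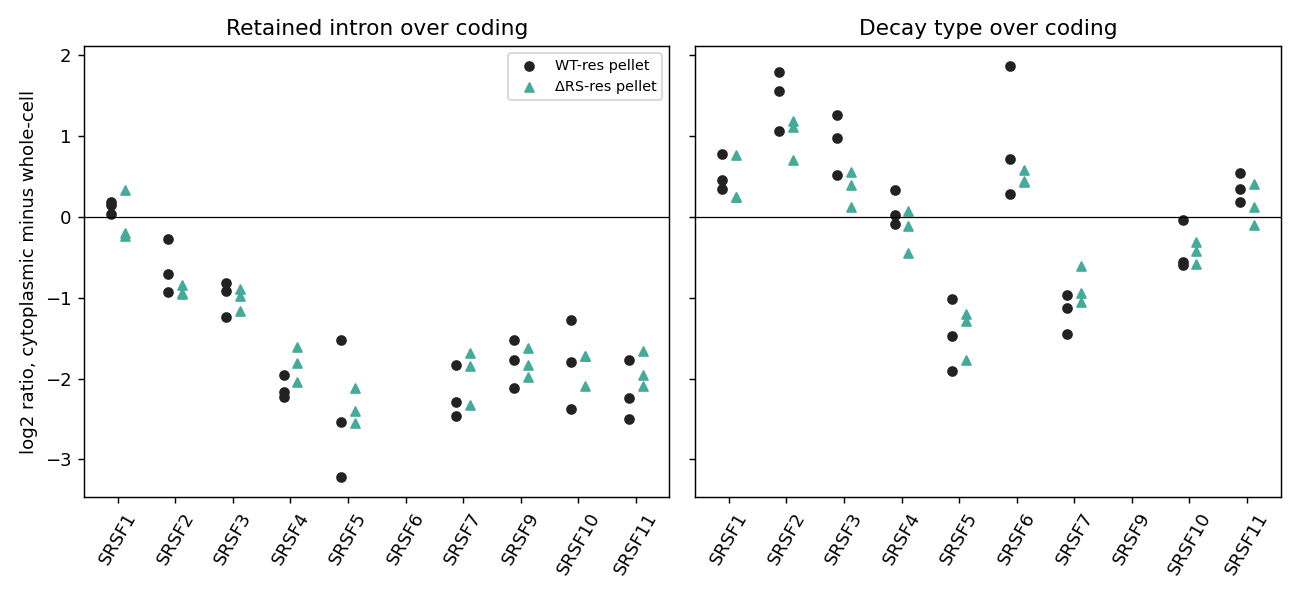
For each gene and cell pellet the log2 ratio of retained-intron (left) or decay-type (right) to coding counts in the cytoplasm is given relative to the same ratio in whole-cell RNA; circles are WT-res and triangles ΔRS-res pellets. Retained-intron ratios of 8 genes lie below 0 in 6 of 6 pellets, while decay-type ratios lie above 0 in SRSF1, SRSF2, SRSF3 and SRSF6 and below it in SRSF5, SRSF7 and SRSF10; SRSF9 is left out on the right for its low counts and SRSF6 has no retained-intron transcript.

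The minor transcripts of both kinds together, relative to coding transcripts, were lower in the cytoplasm in 7 members and higher in 2, SRSF1 and SRSF6, against 57.9% lower and 7.61% higher of all genes tested. SRSF6 differed by 0.72 ± 0.26 (SE, limma adjusted p = 0.0252), and its call was lost in 7 of the 12 fits that left out a library. SRSF2 had opposite movements of its kinds and a sum that did not pass (0.26 ± 0.14, adjusted p = 0.11). With the pellet as a block its difference was 0.26 with an adjusted p of 0.031. With the 4 cytoplasmic libraries that the study kept it was 0.31 (adjusted p = 0.0163), and without WT-res cytoplasmic replicate 2 it was 0.38 (adjusted p = 0.00838). The denominator of these fits includes the coding SRSF2 transcript that keeps a whole intron. That transcript fell from 15.0% to 27.3% of the SRSF2 counts in whole-cell libraries to 2.56% to 5.73% in cytoplasmic libraries. Relative to the canonical transcript alone, the minor share was lower in the cytoplasm in all pellets but WT-res pellet 1. The direction for SRSF2 thus depends on the denominator.

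Among the members' decay-type transcripts that passed, the direction went with what they take from the intron. This split was made after the values were seen and is described without a test. Of the 15 decay-type transcripts with a cassette exon 9 were higher in the cytoplasm, none was lower, and the median log2 difference was 0.96. Over all genes 14.8% of such transcripts were higher and 6.86% lower, near the 14.7% and 9.51% of all decay-type transcripts. The 3 decay-type transcripts that keep a whole intron had differences of -2.26 (SRSF7-208), -4.20 (SRSF7-206, 5.44 counts on average, not past the test) and -0.05 (SRSF10-215, not past the test). Over all genes 35.1% of decay-type transcripts with a whole intron were lower and 3.59% higher. SRSF5-211, whose exon runs on into 956 bases of intron 5, was lower in the cytoplasm (-1.10 ± 0.14, SE). SRSF1-206 was higher, by 0.99 ± 0.22 (SE), and its stop codon lies within the 37 bases of intron sequence that it holds. SRSF2-208, with the canonical stop codon and an intron removed behind it, was higher by 1.13 ± 0.08 (SE).

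SRSF7 and SRSF3 each offer both outcomes for 1 intron. SRSF7-204, with the cassette exon, was higher in the cytoplasm by 1.07 ± 0.08 (SE, edgeR), and SRSF7-208, with intron 3 whole, was lower, at -2.26 ± 0.14. The 6 whole-cell libraries had 0.308 to 0.417 counts of SRSF7-204 for each count of SRSF7-208, and the 6 cytoplasmic libraries had 2.62 to 5.34. The ranges were far apart, and the order of the counts turned over between fractions in both lines. SRSF3-203, with the cassette exon in intron 3, was higher by 1.19 ± 0.08, and SRSF3-207, whose first exon starts inside that intron and covers 1714 of its bases, was lower, at -1.36 ± 0.11. Their ratio was 0.419 to 0.576 in whole-cell and 2.22 to 4.62 in cytoplasmic libraries, so that here too the order of the counts turned over. A long transcript gives more counts, and SRSF3-203 has 1095 annotated bases and SRSF3-207 has 2655. Per length the order in whole-cell RNA therefore need not be that of the counts.

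The same pairing by intron was possible in 4 further members. For SRSF4-208 (0.44 ± 0.09, SE) relative to SRSF4-207 (-1.66 ± 0.07) the ratio of counts was 0.0744 to 0.0967 in whole-cell and 0.314 to 0.489 in cytoplasmic libraries. For SRSF11-217 (1.11 ± 0.16) relative to SRSF11-214 it was 0.0217 to 0.0554 and 0.132 to 0.194. For SRSF2-204 (1.33 ± 0.20) relative to SRSF2-211 (-1.23 ± 0.16) it was 0.109 to 0.159 and 0.395 to 1.27. In these pairs the fractions did not overlap either. SRSF9-206 had 10.8 counts on average, and its ratio to SRSF9-204 overlapped, at 0 to 0.024 and 0 to 0.0805. SRSF6-202, the decay-type transcript of SRSF6, has no such partner and was higher by 0.79 ± 0.08. How RSEM divides reads among transcripts that share exons sets all these values, and its part in them was not tested.

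Between the lines, no member differed in whole-cell RNA as a gene (0 of 10 by edgeR at an adjusted p under 0.05, against 0.0% of 26794 genes tested). At an unadjusted p under 0.05 there were 3 members (SRSF4, SRSF10 and SRSF11) and 3369 genes (12.6%), and DESeq2 called 1 member, SRSF11, at -0.40 (adjusted p = 0.0259), against 3.97% of all genes. SRSF11 had 210, 244 and 271 CPM in WT-res and 176, 195 and 176 CPM in ΔRS-res whole-cell libraries. All WT-res levels were above all ΔRS-res levels, with the highest in the third library labelled WT-res whole-cell, which stands with ΔRS-res in its line-separating genes. The log2 difference was -0.42 ± 0.10 (SE, edgeR adjusted p = 0.211), or -0.34 without that library, and with the replicate number as a block it was -0.41 (adjusted p = 0.0332), a fit that called 7.95% of all genes. SRSF10 had 280, 312 and 293 CPM in WT-res and 252, 273 and 241 CPM in ΔRS-res, also without overlap, and differed by -0.22 ± 0.08 (adjusted p = 0.316), or -0.22 with the block (adjusted p = 0.0436). SRSF4 differed by 0.17 ± 0.07 (adjusted p = 0.368). Without the third library labelled WT-res whole-cell edgeR called 0 of 10 members, against 2.06% of all genes, with SRSF10 at -0.23 (adjusted p = 0.183) and SRSF4 at 0.18 (adjusted p = 0.223). In cytoplasmic RNA SRSF11 differed by 0.02 ± 0.07 (adjusted p = 0.964) over 6 libraries.

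In the cytoplasm the answer depended on which libraries were compared. In the 4 libraries that the study kept, WT-res replicates 1 and 3 and ΔRS-res replicates 1 and 2, 8 of the 10 members were higher in ΔRS-res by edgeR at an adjusted p under 0.05, against 22.1% of genes tested in either direction and 10.7% higher. The log2 differences were 0.74 ± 0.05 (SE) for SRSF6, 0.69 ± 0.04 for SRSF2, 0.51 ± 0.05 for SRSF5, 0.47 ± 0.05 for SRSF9, 0.43 ± 0.05 for SRSF1 and 0.42 ± 0.06 for SRSF3. SRSF10 (0.20 ± 0.05) and SRSF7 (0.18 ± 0.05) did not pass with DESeq2 size factors, nor in 3 of the 4 fits that left out a library. SRSF4 (-0.03) and SRSF11 (0.11) did not pass. Over all 6 cytoplasmic libraries no member passed (0 of 10 by edgeR and by DESeq2 and at an unadjusted p under 0.05, against 1.51% of genes by edgeR), and the differences lay between 0.02 and 0.22. The number called in the 4 libraries was 5 without ΔRS-res cytoplasmic replicate 2.

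The levels per library show what separates these results. SRSF6 had 163, 311 and 173 CPM in WT-res and 272, 280 and 156 CPM in ΔRS-res cytoplasmic libraries. SRSF2 had 199, 330 and 196 CPM in WT-res and 316, 313 and 207 CPM in ΔRS-res. SRSF1 had 484, 700 and 524 CPM in WT-res and 665, 671 and 514 CPM in ΔRS-res. In each of these genes WT-res replicates 1 and 3 and ΔRS-res replicate 3 were the lowest, so that each line held both high and low libraries. This order, WT-res 1, WT-res 3 and ΔRS-res 3 below the other 3, held for 9 of the 10 members, and for 16.6% of all genes, or 21.2% of those with a mean count of at least 100. In whole-cell RNA replicate 3 of both lines was below the other 4 libraries in 7 of the 10 members, and in 16.8% of all genes, or 20.1% of those with a mean count of at least 100. SRSF4 was the member that departed most, with 165, 149 and 153 CPM in WT-res and 156, 151 and 182 CPM in ΔRS-res cytoplasmic libraries, its highest level falling in ΔRS-res replicate 3. What sets the high and low libraries apart was not tested.

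**Figure D3:**
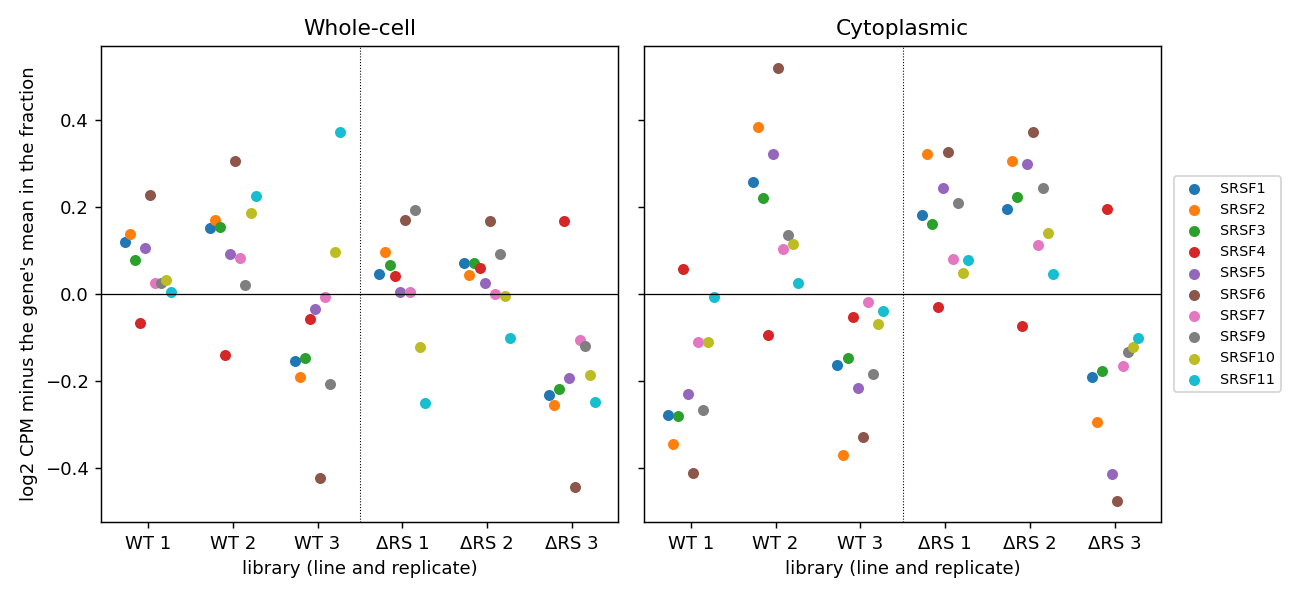
Points give the log2 CPM of each of the 10 genes in each library minus the gene's mean in that fraction, with WT-res libraries left and ΔRS-res libraries right of the dotted line. In the cytoplasm WT 1, WT 3 and ΔRS 3 are low and WT 2, ΔRS 1 and ΔRS 2 high for 9 of 10 genes, SRSF6 having the widest spread (156 to 311 CPM) and SRSF4 departing from this order.

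The members varied together to different degrees over the 12 libraries, which share preparation and scaling and are given here as a description without a test. Pearson's correlation of log2 CPM between a member and the mean of the other members was 0.94 for SRSF1, 0.91 for SRSF6 and 0.83 for SRSF2, and 0.19 for SRSF11 and -0.63 for SRSF4. Among 12691 other protein-coding genes the profiles most like the mean of the members were those of TAF11 (0.99), FAM13B (0.98), TRA2A (0.97), ZNF200 (0.96) and METTL1 (0.96), of which TRA2A encodes an SR-like splicing factor.

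In SRSF2, SRSF3 and SRSF6 the coding counts spanned a wider range over the cytoplasmic libraries than the decay-type counts. Coding counts of SRSF6 were 233, 245 and 143 CPM in WT-res and 221, 219 and 139 CPM in ΔRS-res whole-cell libraries, while its decay-type counts were 7.80, 8.86 and 8.70 CPM and 10.2, 9.10 and 9.0 CPM. In the cytoplasm the coding counts were 130, 274 and 141 CPM in WT-res and 234, 242 and 128 CPM in ΔRS-res, and the decay-type counts 15.9, 12.1 and 14.1 CPM and 14.6, 13.7 and 12.3 CPM. Within the cytoplasm the coding counts thus spanned 2.14-fold and the decay-type counts 1.31-fold, and WT-res replicate 1, with the next to lowest coding level, had the highest decay-type level. In SRSF2 the same spans were 1.92-fold and 1.22-fold, and in SRSF3 they were 1.47-fold and 1.29-fold. No other member with enough decay-type counts showed this difference, and SRSF9 had too few. Coding and decay-type counts spanned about as much in SRSF1 (1.45-fold and 1.47-fold) and SRSF10 (1.27-fold and 1.26-fold), and the decay-type counts spanned more in SRSF4 (1.26-fold and 1.44-fold), SRSF5 (1.72-fold and 1.86-fold), SRSF7 (1.21-fold and 1.28-fold) and SRSF11 (1.13-fold and 1.51-fold). In whole-cell RNA the coding counts also spanned more than the decay-type counts in SRSF6 (1.76-fold and 1.31-fold) and slightly more in SRSF2 (1.39-fold and 1.32-fold). The whole-cell spans of SRSF3 were 1.34-fold and 1.36-fold and those of SRSF1 were 1.29-fold and 1.77-fold, so that in SRSF3 and SRSF1 the coding counts were not the more variable.

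**Figure D4:**
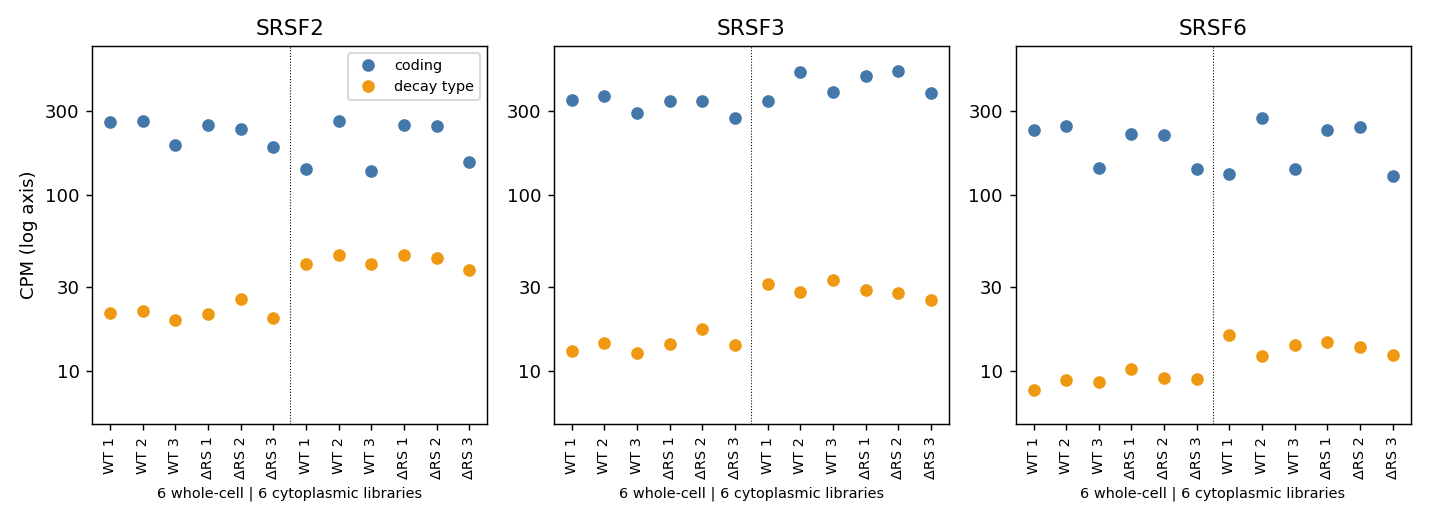
CPM on a log axis of all coding and all decay-type transcripts of SRSF2, SRSF3 and SRSF6 in each library, whole-cell left and cytoplasmic right of the dotted line. Coding levels of SRSF6 range from 128 to 274 CPM over the cytoplasmic libraries, and decay-type levels from 12.1 to 15.9 CPM.

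No single transcript of the members differed between the lines at an adjusted p under 0.05 by edgeR, in whole-cell RNA (0 of 106, against 0.0% of all transcripts tested), in the 4 cytoplasmic libraries (0 of 105, against 0.0%) or in all 6 (0 of 106, against 0.0241%). DESeq2 called 10, 14 and 0 of them, against 2.01%, 4.41% and 1.35% of all transcripts. By the threshold that the study used, an unadjusted p under 0.05 with a log2 difference of more than 0.5 in size, 7 transcripts passed in whole-cell RNA, against 5.25% of all transcripts tested. Of these 7, 6 belong to SRSF11 and were lower in ΔRS-res, from -0.53 (SRSF11-218) to -1.39 (SRSF11-216), among them its main retained-intron transcript SRSF11-214 (-0.62 ± 0.18, SE). The other was SRSF2-210, higher by 0.54 ± 0.20. Without the third library labelled WT-res whole-cell the number was 4, against 6.28%. In the 4 cytoplasmic libraries 11 transcripts passed, against 8.78%, with 10 higher and SRSF10-216 lower (-1.54 ± 0.41), and in all 6 libraries 1 passed, SRSF11-216 (1.29 ± 0.50), against 4.06%.

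The balance of minor to coding transcripts did not differ between the lines either. By limma 0 of 10 members passed in whole-cell RNA, against 0.05% of all genes tested, and 0 of 10 in cytoplasmic RNA, against 0.0%. Fits with edgeR on the same counts also called 0 in both. By limma 3 members in whole-cell and 0 in cytoplasmic RNA had an unadjusted p under 0.05, against 8.78% and 6.03% of all genes. These 3 were SRSF7 (-0.34 ± 0.11, SE), SRSF11 (-0.40 ± 0.14) and SRSF4 (-0.28 ± 0.12), with limma adjusted p values of 0.385, 0.412 and 0.556. Without the third library labelled WT-res whole-cell 0 of 10 passed, against 0.0377%, and 1 member, SRSF7 (-0.25), had an unadjusted p under 0.05. Retained-intron transcripts held 34.8%, 36.2% and 40.2% of the SRSF11 counts in WT-res and 28.0%, 31.9% and 35.8% in ΔRS-res whole-cell libraries. The groups overlapped.

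Of other genes around the SR proteins, taken from lists chosen by function, 6 of 10 SR-like factors differed between fractions by edgeR, against 54.9% of all genes. Of the 10 factors 5 were higher and 1 lower in the cytoplasm, against 23.7% and 31.3% of all genes. SRSF12 was higher by 0.52 ± 0.12 (SE), SREK1 by 0.41 ± 0.11 and RNPS1, a component of the exon junction complex, by 0.34 ± 0.07, whereas SRRM2, a large scaffold of nuclear speckles, was lower, at -0.35 ± 0.09. Of 8 kinases and import factors of SR proteins 4 were higher and 1 lower, against the same 23.7% and 31.3% of all genes. SRPK1 and SRPK2, the kinases that phosphorylate RS domains in the cytoplasm, were higher by 0.33 ± 0.05 and 0.36 ± 0.05, TNPO3, the import receptor, by 0.35 ± 0.05, and the nuclear kinase CLK2 was lower, at -0.40 ± 0.05. Of 10 factors of nonsense-mediated decay 4 were higher and none lower, against 23.7% and 31.3% of all genes, with UPF3B at 0.95 ± 0.09 and UPF2 at 0.84 ± 0.08. Retained-intron transcripts relative to coding ones were lower in the cytoplasm in 9 of 9 SR-like factors, 6 of 6 kinases and import factors and 8 of 8 decay factors with enough counts, against 75.5% of all genes. Between the lines none of the 28 genes passed in whole-cell RNA or over all 6 cytoplasmic libraries. At an unadjusted p under 0.05 there were 1, 2 and 3 in the lists in whole-cell RNA, against 12.6% of all genes. Over the 6 libraries there were 0, 1 and 0, against 2796 of 25946 genes. In the 4 libraries that the study kept 4 SR-like factors passed (3 higher in ΔRS-res, 1 lower), as did 3 kinases and import factors (all lower) and 4 decay factors (3 higher, 1 lower). Of all genes 22.1% passed in these libraries.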

How the data were processed

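RNA-seq of whole-cell and cytoplasmic RNA gave 12 libraries, 3 per line and fraction. The authors depleted ribosomal RNA and ran nf-core/rnaseq with Trim Galore, STAR and RSEM on GRCh38 with Ensembl annotation, and deposited expected counts per transcript, unscaled, of which 43.3% to 47.0% per library were not whole. The strand setting is not given in the sources used here, and no strand was assumed. RSEM estimates how reads shared by isoforms are divided.

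Here the expected counts were rounded, for genes after summing transcripts, and features with a mean count above 2 were kept. edgeR 4.0.16 in R 4.3.3 (TMM, quasi-likelihood test, Benjamini-Hochberg over all features, adjusted p under 0.05) tested 4 groups of line and fraction together for the fractions and each fraction alone for the lines. limma 3.58.1 tested log2 ratios of class counts with a pseudocount of 0.5 and a mean of at least 10 in both classes. Types came from GENCODE 44, which held 99.7% of the transcripts and 99.8% of the genes. Alternatives were DESeq2 1.42.0 and its size factors, no TMM (chosen after seeing the data), other filters, pseudocounts and denominators, blocks, and leaving out each library. The fits were tested on simulated data.

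The members and lists were chosen with earlier results of these data known. All 10 genes are named, with the canonical transcript and the most abundant retained-intron and decay-type transcript of each and those past the study's threshold between lines. Other transcripts were named after their values were seen. Which cytoplasmic libraries the study kept follows its table headings. Fractions of a replicate share a cell pellet in the study's sample sheet, and deviations from group means correlated from -0.17 to 0.80 between them, over 0.1 in 5 of 6. Between lines, same-numbered whole-cell libraries correlated from 0.54 to 0.68. No replicates were duplicates (chi-square per gene from 21.8 to 213.6 between them).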

Additional observations from a re-analysis of the deposited data

How the results depend on the processing

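Of the 3 members that differed between fractions as genes, DESeq2 size factors and the DESeq2 Wald test gave 5, library totals without TMM gave 1, and leaving out a library gave 1 to 4. Of 26687 genes the first 3 of these fits called 15350, 15225 and 13842, against 14654 in the main fit. The fits without a library called 13551 to 14791 genes. Leaving out a library gave 0 to 1 for the interaction of fraction and line, and 5 to 8 for the 8 members called between lines in the 4 cytoplasmic libraries. Between lines in whole-cell RNA the count of 0 members became 1 with DESeq2 (3.97% of all genes) and 2 with the replicate number as a block (7.95%), and the count of 0 transcripts became 10 with DESeq2. For transcripts in the 4 cytoplasmic libraries the count of 0 became 14 with DESeq2 and 1 with no filter. By the study's threshold, leaving out a library gave 4 to 8 transcripts in whole-cell RNA (7 with all), 8 to 22 in the 4 cytoplasmic libraries (11 with all, 22 without WT-res replicate 3) and 0 to 4 in all 6 (1 with all, 4 without WT-res replicate 2). The decay-type ratio of SRSF10 was 0.0937 with the canonical transcript as the denominator in place of -0.42. The cause of these changes was not tested. The other 108 planned or added recomputations of the main counts stayed within 1.5 times, as did 171 that left out a library, with 9 that did not. The block by cell pellet changed the calls given for SRSF2, SRSF6 and SRSF9 and those of 5 transcripts between fractions, 3 of which passed only with it (SRSF10-205, SRSF10-207 and SRSF11-205) and 2 only without it (SRSF2-210 and SRSF3-204), and the block by replicate number changed those of SRSF10 and SRSF11 in whole-cell RNA and of the SRSF2 minor ratio (0.26, adjusted p = 0.0326). In the 6 cytoplasmic libraries the lines correlated at -0.42 for replicate 1, 0.62 for replicate 2 and 0.47 for replicate 3. The numbers thus did not go together throughout, and the block called 0 members. It was not run for the 4 libraries, which share 1 number. Depth limits the decay-type transcripts of SRSF9 and transcripts with a mean of a few counts.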
